A study of Mus musculus with 3 samples.

Results

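The 52 genes described here encode the cyclins, kinases, motor proteins, kinetochore proteins and chromosome proteins with which a cell divides its chromosomes and then itself. They were chosen by name, with earlier results of these data known: a gene belonged to the set where the GENCODE M21 name of its Ensembl identifier was one of 52 names of mitotic genes. All 52 were found, among 55401 identifiers counted. Gene expression had been measured by bulk RNA-Seq of polyadenylated RNA in 3 libraries, named OE replicates 1, 2 and 3 in order of deposit. Each library came from maxillary processes, the paired facial swellings that form the upper jaw, taken from mice at E10.5. The genotype was *Wnt1cre; Rosa26Dlx2/-*, in offspring of a *wnt1cre* parent and a *Rosa26CAG-LSL-Dlx2-3xFlag* parent. The transgene holds *Dlx2* with a Flag tag behind a stop cassette that Cre removes, so that cells in which *wnt1*-driven Cre has been active, those of the neural crest, make additional DLX2. The processes were taken whole, and their epithelium, vessels and blood carry the transgene without being the cells in which Cre was meant to act. The wild-type libraries of the experiment were not analysed here, and no difference between genotypes was tested. The labels give this genotype to the pregnant females as well as to the libraries, and how embryos were sorted is not stated. The labels call the RNA samples independent without naming embryos or litters, so any p-value below measures only the spread between these samples, which may be technical.

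Mitosis begins when CDK1, bound to cyclin B, phosphorylates proteins throughout the cell, and it ends when the anaphase-promoting complex, activated by CDC20, has cyclin B and securin destroyed. Between these events kinesins build the spindle, the kinetochore ties each chromosome to it, and the spindle checkpoint holds back CDC20 until every chromosome is attached. Many of these genes are transcribed mainly in late S, G2 and M phase. Their promoters are known for the CHR (cell cycle genes homology region), which the MuvB complex binds alone or together with B-MYB and FOXM1, and for CCAAT boxes, which NF-Y binds. In bulk tissue their RNA is therefore often read as a sign of dividing cells. Fewer cells in division and less RNA per dividing cell cannot be told apart in such libraries.

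The promoters of the set are shown first because the choice of genes by name did not read their sequence. The CHR-type and CCAAT letters searched for are those already known from promoters of such genes. A high share of them was therefore likely beforehand. RefSeq promoter windows on GRCm38.p6, of 250 bases before to 50 bases after an annotated start, were given for 44 of the 52 genes. *Aurkb*, *Ccna2*, *Foxm1*, *Incenp*, *Kif20a*, *Smc4*, *Spc24* and *Tpx2* were not in the table. The start of the window used lay farthest from the GENCODE gene start in *Kif2c* (3867 bases), *Cdca8* (2394), *Kif4* (328) and *Pttg1* (270). Which start the RNA came from was not tested. The 4 windows below belong to the activator of the anaphase-promoting complex, *Cdc20*, to *Cdk1*, to the kinase *Plk1* and to *Prc1*, which bundles the midzone of the spindle. They are printed because each held both kinds of letters. Capitals mark CHR-type letters (TTTGAA or TTCGAA) and the CCAAT box (CCAAT), either of which may lie on the opposite strand. Read along the printed strand, TTTGAA then appears as TTCAAA and a CCAAT box as ATTGG.
Cdc20: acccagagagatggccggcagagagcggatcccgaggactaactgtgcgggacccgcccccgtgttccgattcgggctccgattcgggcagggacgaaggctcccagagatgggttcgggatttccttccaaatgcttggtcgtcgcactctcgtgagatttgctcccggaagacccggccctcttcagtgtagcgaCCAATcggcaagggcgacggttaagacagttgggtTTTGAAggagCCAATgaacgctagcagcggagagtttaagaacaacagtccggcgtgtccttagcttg
Cdk1: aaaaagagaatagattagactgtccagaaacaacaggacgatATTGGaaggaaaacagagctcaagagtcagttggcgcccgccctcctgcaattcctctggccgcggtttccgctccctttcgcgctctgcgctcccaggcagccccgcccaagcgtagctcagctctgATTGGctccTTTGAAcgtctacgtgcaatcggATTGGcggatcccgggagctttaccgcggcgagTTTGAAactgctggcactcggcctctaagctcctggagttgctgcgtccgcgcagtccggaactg
Plk1: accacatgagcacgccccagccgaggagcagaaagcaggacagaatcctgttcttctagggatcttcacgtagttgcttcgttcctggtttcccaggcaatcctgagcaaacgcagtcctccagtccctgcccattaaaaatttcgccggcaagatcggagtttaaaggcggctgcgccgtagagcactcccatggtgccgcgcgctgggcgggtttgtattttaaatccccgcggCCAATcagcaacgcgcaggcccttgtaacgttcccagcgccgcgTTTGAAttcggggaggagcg
Prc1: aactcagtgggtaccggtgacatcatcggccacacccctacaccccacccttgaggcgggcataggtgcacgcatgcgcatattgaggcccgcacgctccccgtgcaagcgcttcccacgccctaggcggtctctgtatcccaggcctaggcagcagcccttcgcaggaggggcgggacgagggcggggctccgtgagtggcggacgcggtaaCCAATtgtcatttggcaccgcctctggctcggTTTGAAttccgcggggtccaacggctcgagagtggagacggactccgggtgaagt

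The window of *Cdc20* is chr4:118437294-118437593 on the minus strand, that of *Cdk1* chr10:69352863-69353162 on the minus strand, that of *Plk1* chr7:122159185-122159484 on the plus strand and that of *Prc1* chr7:80294201-80294500 on the plus strand. In *Cdc20* the CHR-type letters began 18 bases before the start and lay between 2 CCAAT boxes, which began 53 and 8 bases before it. *Cdk1* held 3 CCAAT boxes, all reading on the opposite strand, and CHR-type letters 71 and 15 bases before the start. In *Plk1* a CCAAT box 14 bases before the start was followed by CHR-type letters 31 bases into the transcribed part, whereas in *Prc1* the pair began 37 and 5 bases before the start. A second window was listed for *Prc1* and was not printed. A further pair of windows shows a different layout.
Smc2: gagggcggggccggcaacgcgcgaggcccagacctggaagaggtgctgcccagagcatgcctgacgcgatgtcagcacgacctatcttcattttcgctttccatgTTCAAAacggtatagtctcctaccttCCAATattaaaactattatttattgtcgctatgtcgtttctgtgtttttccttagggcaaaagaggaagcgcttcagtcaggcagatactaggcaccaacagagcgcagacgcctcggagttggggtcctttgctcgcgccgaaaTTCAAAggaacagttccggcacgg
Birc5: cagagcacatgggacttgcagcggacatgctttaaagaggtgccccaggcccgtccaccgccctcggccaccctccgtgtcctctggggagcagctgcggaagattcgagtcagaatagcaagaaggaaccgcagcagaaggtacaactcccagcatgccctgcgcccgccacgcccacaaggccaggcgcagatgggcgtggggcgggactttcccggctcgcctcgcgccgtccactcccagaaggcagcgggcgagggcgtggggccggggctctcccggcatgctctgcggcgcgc

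*Smc2*, an ATPase of condensin, has its window at chr4:52438971-52439270 on the plus strand, with CHR-type letters on the opposite strand beginning 145 bases before and 27 bases after the start and 1 CCAAT box 119 bases before it. The window of *Birc5*, which encodes survivin, lies at chr11:117848987-117849286 on the plus strand and held neither set of letters. The absence says only that these letters are not in this window.

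CHR-type letters were present on either strand in 34 of the 44 windows (77.3%), against 17.8% of the windows of 16800 protein-coding genes. The CCAAT box was present in 32 (72.7%), against 38.7%, and at least 2 CCAAT boxes in 22 (50%), against 13.1%. Both kinds of letters occurred together in 29 windows (65.9%), against 7.14%, and neither in 7. These 7 belonged to *Birc5*, the kinesin *Kif18a*, *Mad2l1*, *Mybl2*, *Ncaph*, *Nuf2* and *Pttg1*. E2F-type letters (TTTCCCGC, TTTGGCGC, TTCCCGCC or TTTCGCGC) were rarer, in 5 windows (11.4%) against 4.67%, and were found in *Cdk1*, *Kif15*, *Kif18a*, *Ncapd2* and *Ncapg*. Homeodomain-type letters (TAATTA or TAATTG), the core that DLX proteins and many other homeodomain proteins bind, were in 3 windows (6.82%) against 10.8%. A match of this kind is a description of the letters and not of a bound site, and the 2 E2F-type strings TTTCCCGC and TTCCCGCC can overlap each other.

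The letters were not spread evenly along the windows. Of 48 CHR-type matches, 33 began within 50 bases of the start, and 31 of 44 windows (70.5%) had such a match, against 4.30% of all windows. CCAAT boxes lay almost wholly upstream, with 69 of 72 before the start and 49 of these in the 120 bases next to it. All 5 windows of the genes for spindle assembly and cytokinesis held CHR-type letters, as did 5 of 6 of those for condensin and chromosome structure, 7 of 9 of those for kinesins, 4 of 5 of those for the spindle checkpoint and 4 of 5 of those for the centromere and outer kinetochore. The counts were 3 of 4 for cyclins and *Cdk1*, 3 of 4 for the exit from mitosis, 2 of 3 for the entry and spindle kinases, 1 of 2 for the chromosomal passenger complex and 0 of 1 for the transcription factors.

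**Figure D1:**
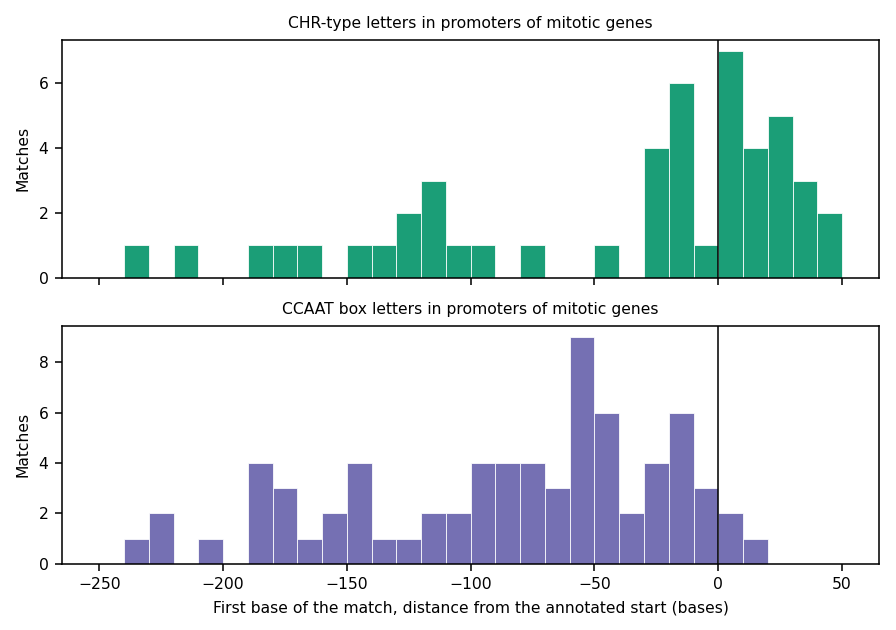
Number of matches (y axis) to CHR-type letters (upper panel) and to the CCAAT box (lower panel) by the distance of the first base of the match from the annotated start (x axis, bases, in bins of 10), over the promoter windows of 44 mitotic genes. Most CHR-type matches, 33 of 48, lie within 50 bases of the start, while 69 of 72 CCAAT matches lie before it.

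Depth was similar in the 3 libraries, with 36544554, 35351031 and 40057435 counts on genes in replicates 1, 2 and 3, and 3 values in a row below follow this order. At this depth a count of 0 would allow a level of up to 0.0777, 0.0843 and 0.0796 CPM (the share of counts on genes scaled to a fixed total, with TMM factors), by counting error only. Genes that averaged 10 counts or more, of which there were 17115, are called tested genes below. Over these, log2 CPM correlated at 0.978 between replicates 1 and 2, 0.936 between 1 and 3 and 0.964 between 2 and 3. *Dlx2* stood at 235, 201 and 183 CPM, which does not separate transgene from endogenous reads. Replicate 1 held 671 CPM of *Xist* and no count of 4 Y-linked genes, while replicates 2 and 3 held under 1 CPM of *Xist* and counts of all 4. All 10 markers of facial mesenchyme were detected, and their summed level was 1983, 2008 and 2069 CPM. Markers of other tissues were less even. The sums were 273, 24.3 and 35.9 CPM for 9 neuron markers and 21.3, 153 and 142 CPM for 6 eye and forebrain markers. Pigment cell markers summed to 2.51, 13.1 and 99.5 CPM, and the 6 of 7 that were tested were all highest in replicate 3. In replicate 1 *Tyr* and *Tyrp1*, enzymes of melanin synthesis, were at 0 counts, while replicate 3 held 127 and 88. The sums were 400.3, 268 and 263 CPM for 6 epithelial markers, 243, 265 and 178 CPM for 5 endothelial markers and 2132, 3990 and 4916 CPM for 6 erythroid markers. Macrophage markers (18.3, 23.3 and 22.1 CPM over 5 genes) and muscle markers (4.69, 2.67 and 5.63 CPM over 4 genes) were low. The part of these tissues in the differences between libraries below was not tested.

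All 52 mitotic genes were well above the detection limit, with mean counts from 764 for *Pttg1* to 22585 for *Ncapd2*. For a comparison between genes, counts were divided by the exonic length of each gene and scaled to the same total in each library, as TPM. Their median level was 81.5 TPM, against 10.9 TPM over all tested genes and 14.8 TPM over the 14105 of these that encode proteins. Of the 52 genes, 51 lay above the protein-coding median, and the exception was *Kif18a* with 9.07 ± 3.23 TPM (SD, n = 3). The levels spanned a wide range all the same, from *Kif18a* to *Cdc20* at 553 ± 44 TPM (SD, n = 3).

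Genes of several roles were among the highest. *Cdc20*, on chromosome 4 (118432901 to 118437352), stood at 596, 555 and 508 TPM and was first in every library. *Ncapd2*, a regulatory subunit of condensin, followed at 347, 321 and 243 TPM. *Plk1*, the polo-like kinase that acts at centrosomes and kinetochores, stood at 282, 265 and 242 TPM. Their order was the same in every library, with *Ncapd2* and *Plk1* nearly level in replicate 3. *Ube2c*, the ubiquitin-conjugating enzyme of the anaphase-promoting complex, was at 233 ± 11.8 TPM (SD, n = 3), although 22.8% of its exonic bases are shared with *Tnnc2*. *Incenp*, the scaffold of the chromosomal passenger complex, was at 217 ± 15.2 TPM and *Ccnb2* at 209 ± 31.2 TPM (SD, n = 3), and the values of these 3 genes overlapped. *Tpx2*, *Top2a*, *Bub1b*, *Aurka*, *Ccnb1* and *Mki67* came next, with means from 152 to 197 TPM.

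The low end also held genes of several roles. *Anln*, the anillin scaffold of the cleavage furrow, stood at 33.0, 25 and 8.91 TPM. *Ncapg*, another regulatory subunit of condensin, was at 39.7, 30.7 and 13.9 TPM. *Ndc80*, the microtubule-binding subunit of the kinetochore complex named after it, was at 35.5, 31.3 and 19.8 TPM. Each of these was lowest in replicate 3, and their ranges overlapped one another. *Pttg1*, which encodes securin, differed in having its highest level, 37.1 TPM, in replicate 3, after 27.4 TPM in both other libraries. With the longest annotated transcript in place of all exonic bases, *Cdc20* and *Ncapd2* still held the top places and *Kif18a* the last, while *Top2a* moved from place 8 to 3, *Plk1* from 3 to 7, *Ccnb2* from 6 to 12 and *Anln* from 51 to 48.

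**Figure D2:**
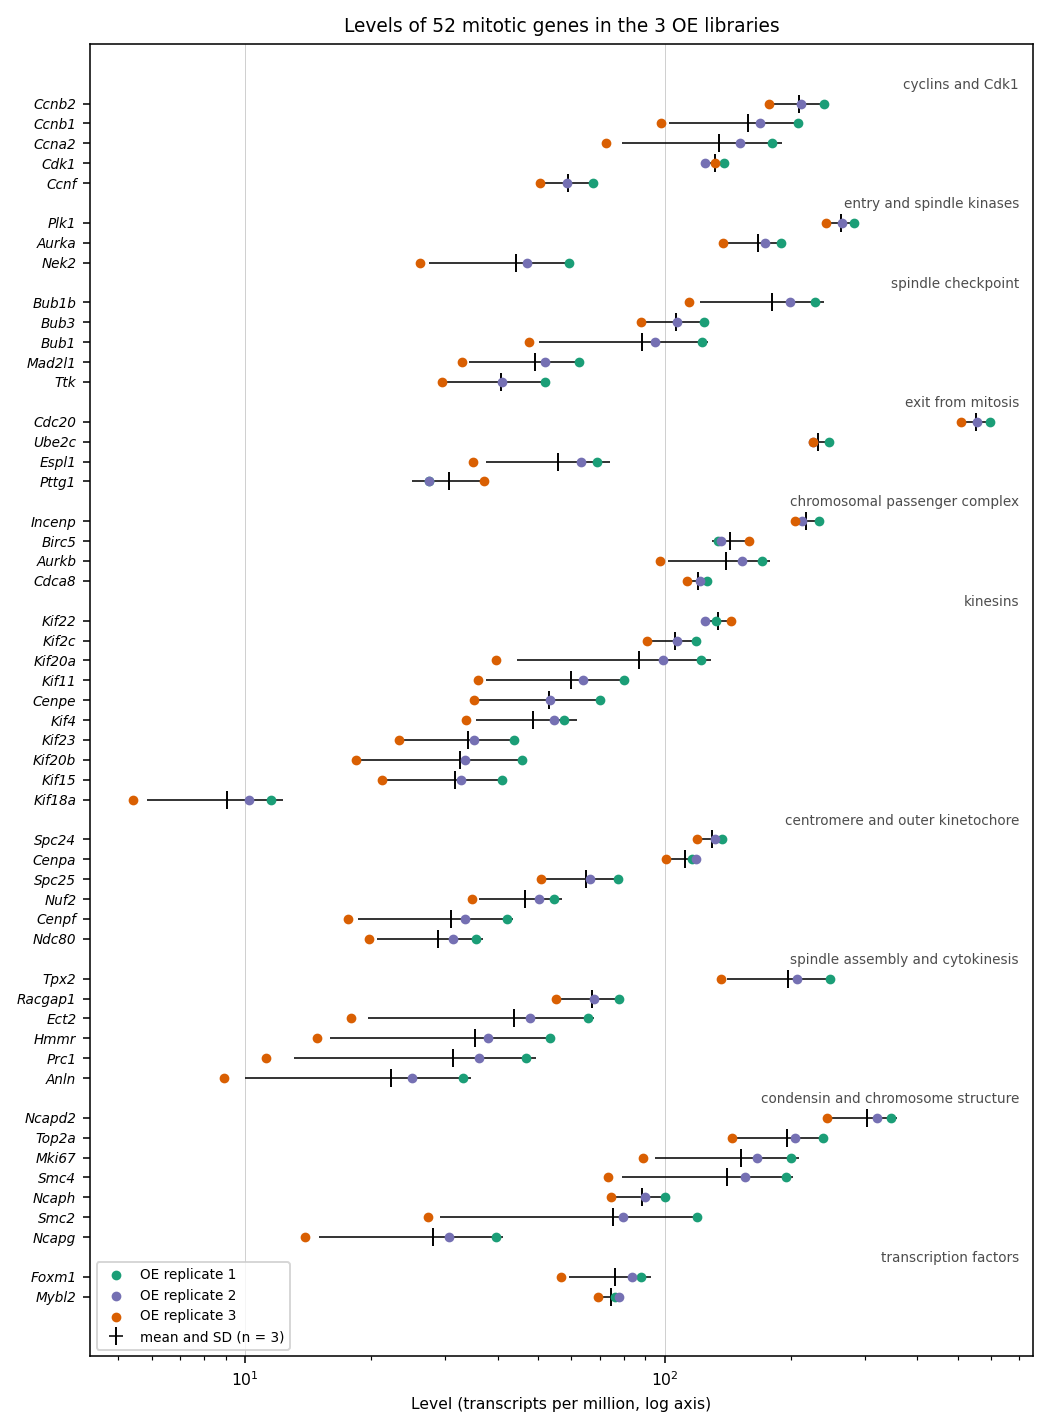
Level of each of the 52 mitotic genes (TPM, log axis) in OE replicates 1, 2 and 3 (points), with the mean and SD (n = 3; bar and line), ordered by role and by mean. *Cdc20* leads at 553 TPM and *Kif18a* is last at 9.07 TPM, and replicate 3 gives the lowest TPM for most genes.

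Proteins that work as one complex did not have RNA at one level. The 4 subunits of the NDC80 complex ranged 4.49-fold, from *Ndc80* at 28.8 ± 8.13 TPM to *Spc24* at 129 ± 8.88 TPM (SD, n = 3), with *Nuf2* at 46.5 ± 10.4 TPM and *Spc25* at 64.9 ± 13.4 TPM between them. The gap was 3.86-fold, 4.22-fold and 6.06-fold in the 3 libraries, and 4.04-fold with the longest transcript. Condensin I spread further, 10.8-fold from *Ncapg* at 28.1 ± 13.1 TPM to *Ncapd2* at 304 ± 53.8 TPM (SD, n = 3), or 8.25-fold with the longest transcript. This gap was 8.72-fold, 10.48-fold and 17.5-fold in replicates 1, 2 and 3, widest in replicate 3, and *Ncapg* shares 13.4% of its exonic bases with *Lcorl*. In the chromosomal passenger complex *Incenp* was 1.80-fold above *Cdca8*, which encodes borealin, at 120.3 TPM. With the longest transcript *Birc5* was the lowest subunit, and the gap from *Incenp* was 1.86-fold. *Racgap1* exceeded *Kif23*, its partner in centralspindlin, 1.97-fold, but only 1.34-fold with the longest transcript. *Ccnb1* and *Cdk1* were 1.20-fold apart, which is within their spread, or 1.80-fold with the longest transcript. In replicates 1 and 2 *Ccnb1* was the higher of the pair, by 1.36-fold in replicate 2, and in replicate 3 *Cdk1* was, by 1.35-fold.

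The spread of the genes over the 3 OE libraries was compared with counting noise by a chi-square test of the counts against the TMM-scaled library sizes, with Benjamini-Hochberg adjustment over all tested genes. It compares libraries and not conditions. The counts of 51 of the 52 genes varied beyond counting noise at an adjusted p under 0.05, against 81.5% of all tested genes and 94.1% of the 8679 deeply counted genes, those that averaged 500 counts or more, a limit chosen after seeing the data because the mitotic genes had many counts. The exception was *Spc25*, of the NDC80 complex, at 66.1, 66.2 and 64.6 CPM (chi-square test, adjusted p = 0.632). *Racgap1*, a component of the midzone, at 148, 151 and 155 CPM, and the checkpoint protein gene *Bub3*, at 233, 234 and 245 CPM, came closest to it, with adjusted p = 0.0285 and 0.00129 by the same test.

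In size, most of these differences were small. The highest library exceeded the lowest at least 1.5-fold in 17 of the 52 genes, against 62.2% of all tested genes and 50.8% of deeply counted genes. The median ratio of highest to lowest CPM was 1.34 over the 52 genes and 1.69 over all tested genes. The median biological coefficient of variation, the spread beyond counting error as edgeR estimates it, was 0.233 against 0.339. edgeR draws this estimate for each gene towards a value shared by all genes, and *Spc25*, which did not vary beyond counting noise, was still given 0.215. The median of the mean counts was 5091 over the mitotic genes and 523 over all tested genes. The medians of the ratio and of the coefficient, and the comparison of replicates 1 and 2 that follows, were not matched for depth. Replicates 1 and 2 were close in size for the whole set: none of the 52 differed 1.5-fold between them, against 16.7% of genes. Beyond counting noise, however, 38 of the 52 differed, a larger share than the 48.8% of genes. The widest gap between these 2 libraries was 1.28-fold, in *Smc2*, and the median gap was 1.07-fold, against 1.17-fold over all tested genes. Without replicate 3 the coefficient of variation was 0.109, against 0.209 over all tested genes. Over the mitotic genes, log2 CPM correlated at 0.989 between replicates 1 and 2, at 0.845 between 1 and 3 and at 0.905 between 2 and 3, across genes that are not independent of one another.

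**Figure D3:**
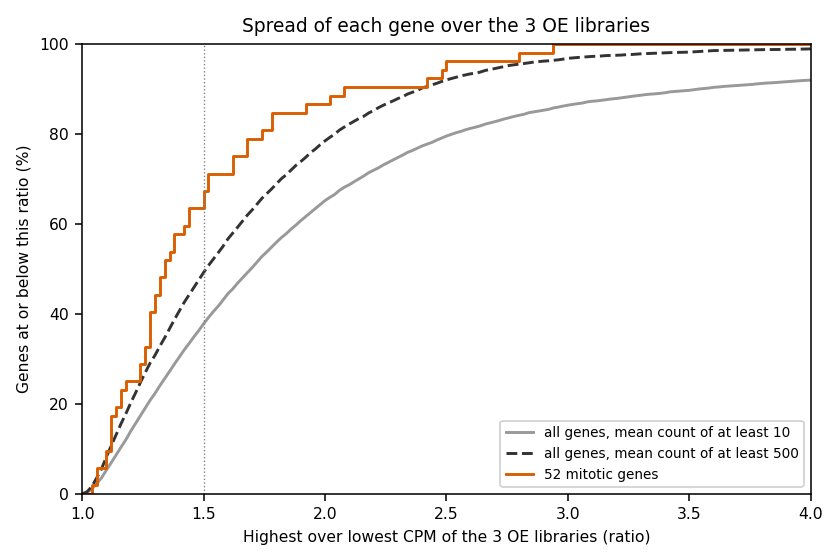
Share of genes (y axis, %) at or below a given ratio of highest to lowest CPM of the 3 OE libraries (x axis, cut at 4), for the 52 mitotic genes, all tested genes and deeply counted genes. The mitotic genes (median 1.34) stay to the left of all tested genes (median 1.69), and 17 of 52 pass the dotted line at 1.5.

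By library, 32 of the 52 genes had their lowest CPM in replicate 3, 20 in replicate 1 and none in replicate 2, against 45.6%, 39.3% and 15.1% of all tested genes. Among deeply counted genes, 52.9% were lowest in replicate 3. The highest CPM fell in replicate 1 for 22 genes, in replicate 2 for 11 and in replicate 3 for 19, against 39.6%, 17.2% and 43.2%. The set thus split between genes lower and genes higher in replicate 3, with replicate 2 between the others for most. The median log2 difference of replicate 3 from the mean of the other 2 libraries was -0.27 over the mitotic genes and -0.03 over all tested genes. It was 0.10 for replicate 1 and 0.10 for replicate 2, against 0.01 and 0.03. The summed level of the 52 genes was 8649, 8744 and 7969 CPM. In TPM, which divides by length and carries no TMM factors, the sum was 6673, 5865 and 4455. The sum was lowest in replicate 3 on both scales.

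The libraries differed by gene length throughout the transcriptome. The mitotic genes had a median of 5298 exonic bases, against 4460 over tested protein-coding genes and 3871 over all tested genes. Over tested genes the median log2 difference of replicate 3 was 0.64 for genes of up to 2000 exonic bases, 0.16 above 2000 and up to 4000, -0.23 above 4000 and up to 8000, and -0.56 above 8000. Replicate 1, set against replicates 2 and 3, had the opposite order in the same classes, with -0.45, -0.11, 0.16 and 0.40. For replicate 3 the mitotic genes in the same classes had medians of 0.28 (3 genes), 0.29 (7 genes), -0.27 (32 genes) and -0.50 (10 genes). Across the 52 genes the log2 difference of replicate 3 and log2 length correlated at -0.47 (Spearman -0.46), and across 17101 tested genes at -0.38 (Spearman -0.44). These points share their libraries, and the coefficients are descriptions. A smooth trend of the differences on length and on GC content was then fitted over the tested genes and subtracted. With this trend removed the median difference of the mitotic genes in replicate 3 became 0.03, and those in replicates 1 and 2 became -0.11 and 0.03. The lowest library was then replicate 3 for 22 genes, replicate 1 for 28 and replicate 2 for 2. Of the 32 genes below 0 in replicate 3, 14 then lay above 0 and 18 stayed below. Of the 20 above 0, 5 then lay below and 15 stayed above. A range of 1.5-fold remained in 9 of the 17 genes and was newly reached by 5, against 47.2% of all tested genes with the trend removed. None kept the 2-fold range that 7 had before, and 22.9% of all tested genes had such a range with the trend removed.

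**Figure D4:**
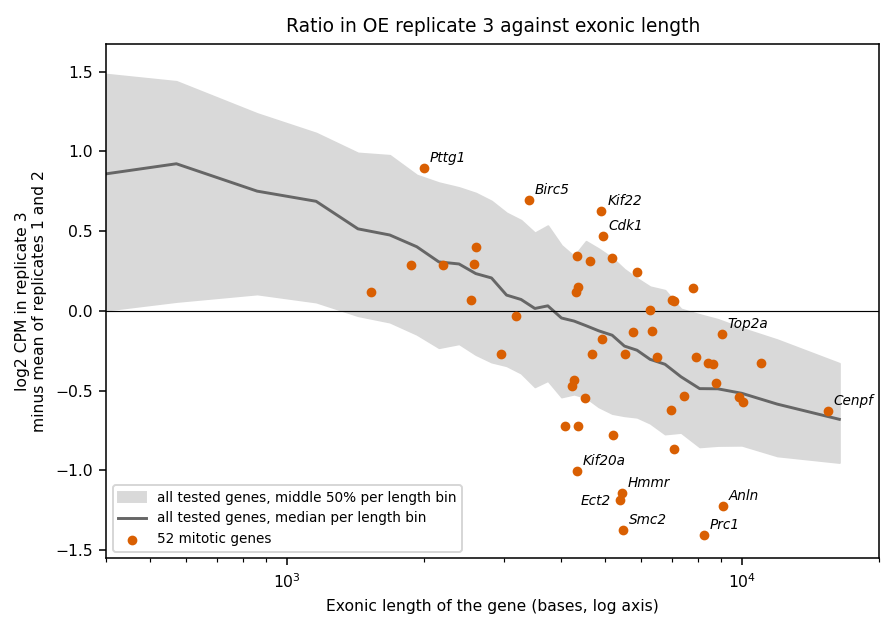
log2 CPM of replicate 3 minus the mean of replicates 1 and 2 (y axis) against exonic length (x axis, bases, log axis) for the 52 mitotic genes (points), with the median and middle 50% of all tested genes per length bin (line and band). Both fall with length (correlation -0.47 over the mitotic genes, -0.38 over all tested genes); genes lie outside the band on both sides, from *Prc1* at -1.41 to *Pttg1* at 0.90.

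Of the 6 genes for spindle assembly and cytokinesis, 4 ranged at least 2-fold, as did 34.8% of all tested genes. *Prc1*, whose protein bundles antiparallel microtubules at the midzone, is on chromosome 7 (80294450 to 80316259) and stood at 103, 92.7 and 36.8 CPM. *Anln* stood at 80.1, 70.9 and 32.2 CPM. *Ect2*, which acts at the cleavage furrow, stood at 94.5, 80.5 and 38.4 CPM. In all 3 genes replicate 3 was the low library, by more than 2-fold against replicate 1, and the counts differed beyond counting noise (chi-square test, adjusted p = 1.1e-266 for *Prc1*, 1.77e-173 for *Anln* and 5.78e-197 for *Ect2*). *Hmmr*, a spindle protein also known as a receptor for hyaluronan, had the same order, with 77.6, 64.6 and 32.1 CPM. The log2 differences of replicate 3 were -1.41, -1.23, -1.18 and -1.14 in these 4 genes. They kept their sign when the trend on length and GC content was removed, at -0.79, -0.65, -0.63 and -0.63. The other 2 genes of the group did not share this. *Tpx2*, which nucleates spindle microtubules and activates Aurora A, stood at 311, 303 and 254 CPM (log2 difference -0.27, and -0.03 with the trend removed). *Racgap1* was even across the libraries on the CPM scale, at 151 ± 3.89 CPM (SD, n = 3), but with the trend removed it was higher in replicate 3 (0.52) and its range became 1.51-fold. *Prc1* shares 11.1% of its exonic bases with *Rccd1*, and its values are less certain for that reason.

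Condensin and chromosome structure were divided in the same manner. *Smc2*, on chromosome 4 (52439243 to 52488260), had the widest range of the set, 2.94-fold, at 175, 137 and 59.5 CPM. *Smc4*, with which SMC2 forms the core of every condensin, stood at 271, 253 and 153 CPM, and *Ncapg* at 75.1, 67.8 and 39.2 CPM. All 3 were lowest in replicate 3 by at least 1.5-fold against either other library. The other condensin I subunits were not: *Ncaph* stood at 116, 121 and 128 CPM and *Ncapd2* at 581, 630 and 608 CPM. Within one 5-subunit complex the log2 differences of replicate 3 therefore ran from -1.38 in *Smc2* to 0.12 in *Ncaph*. With the trend removed *Smc2* stayed at -0.81, while *Smc4* moved to -0.24 and *Ncapg* to -0.16. *Top2a*, the topoisomerase that untangles sister chromosomes, stood at 576, 576 and 520 CPM. Its difference in replicate 3 turned from -0.15 to 0.50 with the trend removed. *Mki67*, which encodes the proliferation antigen Ki-67 and coats mitotic chromosomes, stood at 539, 522 and 357 CPM. It was lowest in replicate 3 (log2 difference -0.57), but at -0.02 once the trend was removed; the gene has 10061 exonic bases.

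Among the cyclins, *Ccna2*, the cyclin of S phase and of entry into mitosis, stood at 197, 193 and 118 CPM. *Ccnb1*, the main partner of CDK1, stood at 234, 223 and 165 CPM. *Ccnb2*, the other B-type cyclin, was nearly level at 98.2, 101 and 108 CPM. The B-type cyclins thus had opposite orders, *Ccnb1* lowest and *Ccnb2* highest in replicate 3. With the trend removed the difference of replicate 3 was -0.13 for *Ccnb1* and -0.17 for *Ccnb2*, and *Ccna2* stayed lower at -0.46. *Cdk1* itself was highest in replicate 3, at 183, 192 and 260 CPM, and the removal of the trend widened this difference from 0.47 to 0.73. *Ccnf*, an F-box protein of the SCF ubiquitin ligase, stood at 141, 143 and 157 CPM. *Ccna2* shares 12.5% of its exonic bases with *Exosc9*.

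Of the 3 kinases of entry and the spindle, 1 ranged 1.5-fold, against 62.2% of all tested genes. *Plk1* stood at 166, 182 and 212 CPM and *Aurka*, the centrosomal Aurora kinase, at 128, 137 and 139 CPM, both highest in replicate 3. *Nek2*, which separates the centrosomes, ran the other way at 71.6, 66.4 and 47.2 CPM, with a range of 1.52-fold. With the trend removed all 3 lay below 0 in replicate 3, at -0.22, -0.14 and -0.46. For *Plk1* and *Aurka* the direction therefore changed with the removal of the trend.

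In the spindle checkpoint, *Bub1*, a kinase of the kinetochore, stood at 143, 129 and 82.4 CPM. *Bub1b*, which encodes BUBR1, stood at 262, 266 and 195 CPM. Both were lowest in replicate 3, and both stayed below 0 with the trend removed (-0.28 and -0.37). *Mad2l1*, the inhibitor of CDC20, stood at 140.3, 136 and 110.3 CPM, and *Ttk*, the kinase MPS1, at 68.2, 62.9 and 57.9 CPM. Their lower values in replicate 3 (log2 difference -0.33 and -0.18) turned to 0.38 and 0.26 with the trend removed. *Bub3* was within 1.05-fold across the libraries, but 1.44-fold with the trend removed (0.47 in replicate 3).

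Of the 4 genes of the exit from mitosis, 3 were highest in replicate 3, against 43.2% of all tested genes. *Cdc20* stood at 298, 324 and 379 CPM and *Ube2c* at 171, 184 and 234 CPM. *Pttg1*, on chromosome 11 (43420250 to 43426251), had the only 2-fold range among genes highest in replicate 3, at 14.7, 17.2 and 29.6 CPM (chi-square test, adjusted p = 3e-51). It was also the only gene at least 1.5-fold higher in replicate 3 than in either other library. *Espl1*, the separase that securin holds in check, went in the opposite direction at 161, 173 and 122 CPM. The removal of the trend left *Pttg1* at 0.87 and *Espl1* at -0.43, but took *Cdc20* from 0.28 to -0.26 and *Ube2c* from 0.40 to -0.02. Exonic lengths were 1868 bases in *Cdc20*, 2600 in *Ube2c*, 2000 in *Pttg1* and 8749 in *Espl1*. In the same order GC content was 55.6%, 55.5%, 46.0% and 56.1%, and the parts of length and GC content were not tested apart.

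In the chromosomal passenger complex, 3 of the 4 genes were highest in replicate 3, against 43.2% of all tested genes. *Birc5*, on chromosome 11 (117849251 to 117855743), stood at 122, 145 and 216 CPM, a range of 1.77-fold (chi-square test, adjusted p = 6.22e-242). *Incenp* stood at 271, 287 and 353 CPM and *Cdca8* at 175, 197 and 234 CPM. In each of these the libraries stood in the same order, replicate 1 lowest. *Aurkb*, the kinase of the complex, had a lower value in replicate 3, with 135, 141 and 114 CPM. The split held with the trend removed, at 0.82, 0.18 and 0.61 for *Birc5*, *Incenp* and *Cdca8* and at -0.48 for *Aurkb*.

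Of the 10 kinesins, 8 were lowest in replicate 3, against 45.6% of all tested genes and 52.9% of deeply counted genes. The kinesins had a median of 7209 exonic bases. Their median log2 difference in replicate 3 was -0.33, which became 0.22 with the trend removed. *Kif20a*, the motor that brings the passenger complex to the midzone, stood at 142, 134 and 68.6 CPM, a range of 2.06-fold. Its log2 difference in replicate 3 was -1.01 and stayed at -0.83 with the trend removed, the lowest such value of the set. *Kif20a* shares 29.3% of its exonic bases with *Cdc23*, which lies on the opposite strand and had 161, 145 and 71.3 CPM. Reads on the shared bases may have been set aside as ambiguous. *Kif20b*, also a motor of cytokinesis, stood at 85.0, 72.9 and 51 CPM, and its difference in replicate 3 went from -0.62 to 0.04 with the trend removed. *Kif11*, which slides the poles apart, *Kif15*, its partner in that task, *Kif18a*, which dampens chromosome movement, *Kif23*, *Kif4*, a chromosome-bound motor, and *Cenpe*, the motor of the kinetochore, had differences from -0.54 to -0.27, and all 6 lay above 0 with the trend removed. Of these, *Kif11* stood at 159.7, 149.5 and 107 CPM and *Cenpe* at 162, 144 and 121 CPM, and *Kif18a* was the least counted kinesin at 30.4, 31.5 and 21.2 CPM. *Kif4* is on the X chromosome and shares 15.1% of its exonic bases with *Pdzd11*. Its values of 85.2, 94.1 and 74.0 CPM put the library with *Xist* between the others. *Kif2c*, a microtubule depolymerase of the centromere, was at 139, 146 and 158 CPM. *Kif22*, which pushes chromosome arms outward, was the only kinesin with a range of 1.5-fold that was highest in replicate 3, at 174, 191 and 282 CPM (log2 difference 0.63, and 0.82 with the trend removed).

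**Figure D5:**
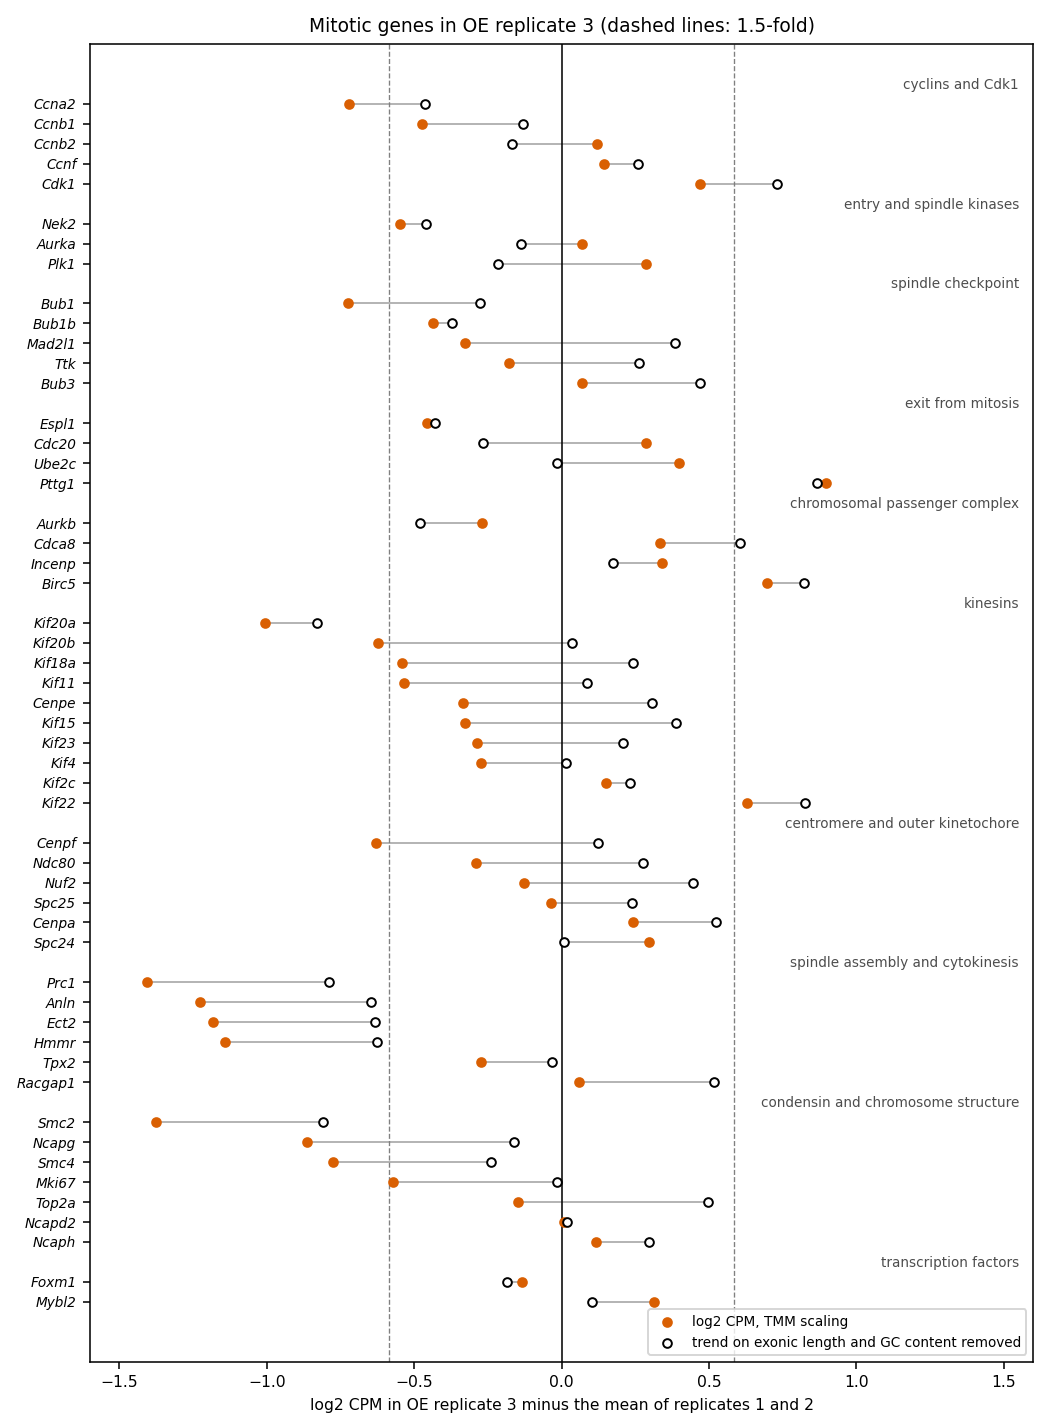
log2 CPM of replicate 3 minus the mean of replicates 1 and 2 (x axis) for each mitotic gene, with TMM scaling (filled) and with the trend on exonic length and GC content removed (open), ordered by role, with dashed lines at 1.5-fold. The range runs from -1.41 in *Prc1* to 0.90 in *Pttg1*, and 14 of the 32 genes below 0 cross to above 0 when the trend is removed.

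Of the 6 genes of the centromere and outer kinetochore, 1 ranged 1.5-fold in CPM, against 62.2% of all tested genes. *Cenpf*, a very long protein of the outer kinetochore, stood at 174, 161 and 108 CPM, a range of 1.61-fold. Its gene has 15433 exonic bases, and the difference of -0.63 became 0.12 with the trend removed. *Cenpa*, the histone H3 variant that marks the centromere, was highest in replicate 3 at 182, 218 and 236 CPM, and its range of 1.29-fold became 1.62-fold with the trend removed. *Nuf2* stood at 92.4, 99.8 and 87.9 CPM, *Ndc80* at 61.6, 63.5 and 51.2 CPM and *Spc24* at 94.2, 106 and 123 CPM. The 4 NDC80 subunits had log2 differences of replicate 3 from -0.29 to 0.30, and with the trend removed these became 0.27 for *Ndc80*, 0.45 for *Nuf2*, 0.24 for *Spc25* and 0.01 for *Spc24*. The order of *Ndc80* and *Spc24* in replicate 3 relative to the other libraries thus turned with the trend.

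The transcription factors that bind CHR-type promoters were present in every library. *Foxm1* stood at 135, 151 and 130.0 CPM and was lowest in replicate 3. *Mybl2*, which encodes B-MYB, stood at 94.4, 113 and 128 CPM and was highest there. Neither ranged 1.5-fold. Genes with and without CHR-type letters in their windows had the same median log2 difference of replicate 3, -0.23, and median levels of 71.2 and 51 TPM.

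Other genes of mitosis, in 6 lists of 95 genes that hold none of the 52, were measured beside them. All 95 were tested, with a median of 44.2 TPM. Of these, 89 varied beyond counting noise, against 81.5% of all tested genes and 94.1% of deeply counted genes. A 1.5-fold range was found in 44 of 95, against 62.2% of all tested genes and 50.8% of deeply counted genes. Of the 95, 63 were lowest in replicate 3, against 45.6% and 52.9%. The median log2 difference of the 95 in replicate 3 was -0.36, which became -0.05 with the trend removed. Of 14 genes of cohesin and condensin II, 12 were lowest in replicate 3, against 45.6% of all tested genes. The median log2 difference of this list in replicate 3 was -0.79 (-0.13 with the trend removed). *Ncapg2* of condensin II had the widest range of the 95, 5.48-fold, at 41.6, 33.6 and 7.59 CPM, or 3.28-fold with the trend removed. *Rad21*, the cohesin subunit that separase cuts, was the most abundant of that list at 224 ± 112 TPM (SD, n = 3). In the outer kinetochore list *Zwint* was highest at 166 TPM and *Knl1*, the scaffold onto which BUB1 and BUB3 load, lowest at 9.52 TPM. *Knl1* also had the widest range of its list in CPM, with 34.0, 26.0 and 13.4 CPM, but its range of 2.55-fold became 1.42-fold with the trend removed, when *Pmf1*, at 2.89-fold, was widest. The inner kinetochore list ran from *Cenpo* at 7.11 TPM to *Cenpb* at 137 TPM, and *Cenpm* was its most variable gene at 20.9, 32.3 and 65.6 CPM, highest in replicate 3 (3.14-fold, and 1.92-fold with the trend removed). Among spindle genes *Tacc3* led at 185 TPM, *Kif14* was last at 9.29 TPM and *Aspm* ranged most in CPM, with 80.5, 73.5 and 46.7 (1.72-fold, and 1.06-fold with the trend removed). In the list of entry regulators and the anaphase-promoting complex *Anapc5* led at 282 TPM, *Mastl* was last at 12.2 TPM and *Cdc23* ranged most in CPM (2.25-fold, and 1.49-fold with the trend removed). The MuvB and DREAM list ran from *Rbl2* at 1.98 TPM to *Tfdp1* at 230.2 TPM, and *Lin37*, a MuvB subunit, ranged from 14.0 and 16.8 to 33.6 CPM (2.39-fold, and 1.38-fold with the trend removed).

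DNA replication genes served as the neighbouring phase of the cycle. Their 34 genes had a median of 104 TPM, led by *Pcna* at 582 TPM, and 31 varied beyond counting noise, against 81.5% of all tested genes. Of these 34, 10 had a 1.5-fold range and 14 were lowest in replicate 3, against 62.2% and 45.6% of all tested genes. The replication genes had a median log2 difference of 0.04 in replicate 3 (0.12 with the trend removed). *Pola1*, the catalytic subunit of DNA polymerase alpha, ranged most in CPM at 61.0, 48.8 and 23.1, a range of 2.64-fold that became 1.52-fold with the trend removed. *Fen1* was lowest at 1.41 TPM, and 84.2% of its exonic bases are shared with the opposite-strand gene *Gm10143*. Reads on bases that 2 genes share are commonly left unassigned in such counting. The levels of the 8 mitotic genes that share at least 5% of their exonic bases with another gene on either strand are less certain for this reason, and *Kif20a* and *Ube2c* share most. On the same strand 4 mitotic genes shared any exonic base, at most 3.78%. The same letters were counted in the promoter windows of these lists. CHR-type letters were in 44.9% of 78 windows of the other mitotic genes and in 23.1% of 26 windows of the replication genes. E2F-type letters were in 21.8% and 53.8%, and the CCAAT box in 57.7% and 65.4%.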

How the data were processed

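Bulk RNA-Seq counts of 3 OE libraries from E10.5 maxillary processes were used, each from 2 μg of RNA, with 150 bp paired-end reads. Per the submitters' processing notes, reads were mapped to mm10 with STAR 2.7.3a and counted with HTSeq 0.12.4, and the authors deposited raw counts per gene without normalization. The annotation release and strand setting are not given in the sources used here, and the kit as described does not mark strand, so the gene behind a read on shared bases is not known. Reads set aside as lying on more than 1 gene made up 6.11%, 6.10% and 6.96% of counted reads. Entries that name no gene held 14.2%, 15.7% and 16.4% of counted reads and were left out of library sizes.

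Identifiers were matched to GENCODE M21 (GRCm38), with 55141 of 55401 found. CPM used edgeR 4.0.16 with TMM factors of 1.06, 1.01 and 0.940, and log2 CPM a prior count of 2. Genes averaging 10 counts or more were tested. Counting noise was tested per gene by chi-square, with expected counts in proportion to the TMM-scaled totals and p-values adjusted by Benjamini-Hochberg at 0.05. TPM used the exonic bases of each gene. Trends on exonic length and GC content were fitted with mgcv 1.9.3. DESeq2 1.42.0 gave alternative size factors and dispersions. R 4.3.3 and Python 3.11.15 were used, and the steps were tested on simulated data. Promoter windows were RefSeq's, searched on both strands.

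With 1 group, no contrast between conditions could be fitted. Replicates were numbered in order of deposit. Depth was 35351031 to 40057435 counts, and limits from 3 counts cover counting error only. The members and lists were chosen with earlier results of these data known. Every member is named. Of each other list, the genes highest and lowest in mean TPM and the one with the widest ratio of CPM between libraries are named. Genes sharing exons with these, and *Tyr*, *Tyrp1* and *Pmf1*, were named after their values were seen. Alternatives were other scalings, filters, prior count, fold and gene length, removal of the trend, and leaving out each replicate. The limit of 500 counts for deeply counted genes, and the shares of all genes at 2-fold and with the trend removed, were added after seeing the data.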

Additional observations from a re-analysis of the deposited data

How the results depend on the processing

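Of 228 alternative values for 65 results, 212 stayed within the limits set for a change and 16 moved. No paired analysis was possible because only 1 group was analysed. Leaving out 1 replicate at a time gave 0 to 17 genes with a 1.5-fold range (17 with all libraries), with 0 without replicate 3 and 11 without replicate 1. It gave a median coefficient of variation from 0.109 without replicate 3 to 0.359 without replicate 2, and a median level from 70.7 TPM without replicate 1 to 97.3 TPM without replicate 3. Without replicate 3 the median log2 difference of replicate 1 also changed sign, to -0.022. At a 2-fold limit 7 genes remained of the 17. With the trend on exonic length and GC content removed, the median log2 difference changed sign in replicate 1, from 0.10 to -0.11, and in replicate 3, from -0.27 to 0.028, and 10 genes were highest in replicate 1, 17 highest in replicate 2 and 2 lowest in replicate 2. With totals of counts on genes as the scaling, 6 genes were highest in replicate 2, 13 lowest in replicate 1 and 2 lowest in replicate 2. DESeq2 size factors and upper-quartile scaling each put 1 gene lowest in replicate 2. Within the limits set, the lowest library was replicate 3 for 28 genes and replicate 1 for 23 with upper-quartile scaling. With the trend removed these counts were 22 and 28, so replicate 1 was then lowest most often. The median of all tested genes in replicate 3 shifted to 0.10 with upper-quartile scaling and to -0.16 with totals, and in replicate 1 to 0.13 with totals, so directions below these sizes depend on the scaling. The cause of these shifts was not tested. With 3 libraries of 1 genotype, differences between libraries limit what can be read from a single gene. They exceeded counting noise in 51 of the 52 mitotic genes.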

Other observations

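Genes related to the mitotic set but known from germ cells were mostly at low levels in the OE maxillary processes. *Ccnb3*, a cyclin of oocyte meiosis, had 2, 1 and 0 counts in replicates 1, 2 and 3, and *Aurkc*, the Aurora kinase of germ cells, had 0, 0 and 4. *Smc1b*, the cohesin ATPase of meiosis, had 8, 16 and 4 counts. These 3 genes were below the mean count of 10 and were not tested. *Ccna1*, the A-type cyclin of the testis, stood at 0.544, 0.730 and 0.982 CPM, or 1.24 TPM on average, against 135 TPM for *Ccna2*.

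The other 3 genes of this list were clearly detected. *Rec8*, the meiotic counterpart of *Rad21*, stood at 8.37, 13.1 and 27.8 CPM, a range of 3.33-fold with replicate 3 highest (chi-square test, adjusted p = 4e-103). Its mean level was 16.2 ± 6.79 TPM (SD, n = 3), and its range was 2.41-fold with the trend on length and GC content removed. *Stag3*, a meiotic cohesin subunit, stood at 5.39, 9.97 and 7.57 CPM and was highest in replicate 2. *Mybl1*, which encodes A-MYB, the relative of B-MYB known from spermatocytes, stood at 9.79, 7.73 and 6.26 CPM and was lowest in replicate 3 in CPM, but its difference there turned from -0.47 to 0.12 with the trend on length and GC content removed. Which cells of the dissected tissue held these RNAs was not tested.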
